A study of Homo sapiens with 16 samples.

Results

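The 9 genes described here repair broken or stalled DNA or signal its presence: BRCA1, PALB2 and BRCA2, which carry out homologous recombination, FANCA and BRIP1 of the Fanconi anaemia pathway, the kinases ATM, ATR and CHEK1, and CDK12, a kinase of RNA polymerase II. Their members in the data were all regions of the merged peak list, and all peaks of the 8 immunoprecipitated (IP) libraries, that lay on the GENCODE spans of these genes on hg38. This gave 47 of the 36970 merged regions and 274 of the 191974 peaks. The study compared N6-methyladenosine (m6A) in RNA of 2 human prostate cancer cell lines by MeRIP-seq, in which an anti-m6A antibody pulls down fragments of total RNA and the pulled-down library is read against unenriched input RNA. C4-2B is sensitive to enzalutamide, a drug that blocks the androgen receptor, and MDV-R was derived from C4-2B by serial exposure to that drug and, by the study's methods, is kept in it. Both lines are wild type by their labels and were taken at day 3, each with 4 IP and 4 input libraries, so the line, its history and the drug in its medium cannot be told apart. The replicates are not said to be separate cultures, and p-values therefore measure the spread between these libraries, which may be technical. In bulk RNA, fewer cells of a kind and less RNA per cell cannot be told apart.

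Homologous recombination copies an intact DNA strand to mend a double-strand break. BRCA1 helps to choose this route at the break, PALB2 bridges BRCA1 to BRCA2, and BRCA2 loads the protein filament that searches for the template. FANCA belongs to the Fanconi core complex, which marks cross-linked DNA for repair, and BRIP1 is a helicase that binds BRCA1. ATM responds to double-strand breaks and ATR to stretches of single-stranded DNA at stalled forks, with CHEK1 as the kinase downstream of ATR, and CDK12 keeps long genes of this group transcribed to their full length. Inherited or acquired loss of several of these genes is known in advanced prostate cancer. In most mRNAs m6A is found in long internal exons and around the stop codon, at an adenosine within the motif DRACH, of which GGAC is the form most often methylated.

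A few technical facts bear on all values below. Libraries had 0.864 to 1.21 M (mega) IP tags (a tag is a read left after removal of duplicates) and the lists 13191 to 30645 peaks, with the fewest in C4-2B replicate 1. Input depth differed by line, with 0.901 to 1.23 M tags in C4-2B and 1.60 to 2.97 M in MDV-R, and its part in the differences below cannot be told apart from the line. The titles of the MDV-R samples carry the name of another cell line as well, and the cell line field was followed. All 8 prostate luminal markers examined, the androgen receptor gene among them, had a region in an exon, and 4 of 6 markers of other cell types had no peak in any list. COL1A1, a fibroblast gene, had peaks of at most 20 tags in 1 list of C4-2B and 2 of MDV-R, and UPK2, a urothelial gene, had peaks in all 8 lists, though none of its regions lay in an exon of its main transcript.

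A peak of at least 1 list lay on 46 of the 47 regions, and 17 had one in all 8 lists. The latter were 37.0% of the 46, beside 25.9% of the 36076 merged regions that overlapped any peak. The summit, the highest point of the strongest peak, fell in coding sequence in 17 regions, in a 5′UTR in 1 and in an intron in 15, counted on the MANE Select transcript of each gene, called the main transcript below. In 14 regions it fell inside the gene's annotated span but beyond the ends of that transcript, and in none in a 3′UTR. Regions called in all 8 lists were mostly exonic, with 11 in coding sequence and the 5′UTR region of CHEK1 against 2 in introns and 3 outside the main transcript. Main transcript exons thus held 70.6% of them, beside 66.2% of the regions called in all lists over the series. Classed over all transcripts, 31.9% of the called regions of the series lay in introns and 13.6% in 3′UTRs. On that wider basis the summits of FANCA region 1 and BRIP1 region 2 also lay in a 3′UTR of their gene. At 19 of the 47 summits another gene is annotated as well. The deposited peaks carry no strand, so that RNA of overlapping genes could not be separated there.

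Exon length was shared by the exonic regions. Of the 18 regions with a summit in an exon of the main transcript, 17 (94.4%) lay in an exon of at least 400 nt. Such exons hold 52.5% of the bases of the 9 mRNAs, beside 66.3% of those of all main transcripts. Over the whole series 83.9% of the 14195 regions in main transcript exons lay in exons that long. The long exon 10 of BRCA1 (3426 nt) and the long exon 11 of BRCA2 (4932 nt) held 2 and 3 regions. ATM, whose mRNA of 12915 nt consists of short exons up to its last one, had no exonic region. Over the last exons, the summits of BRCA2, CDK12 and BRIP1 lay in the coding part, 516, 297 and 331 nt before its end, and that of FANCA in exon 41 lay 326 nt before it.

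**Figure D1:**
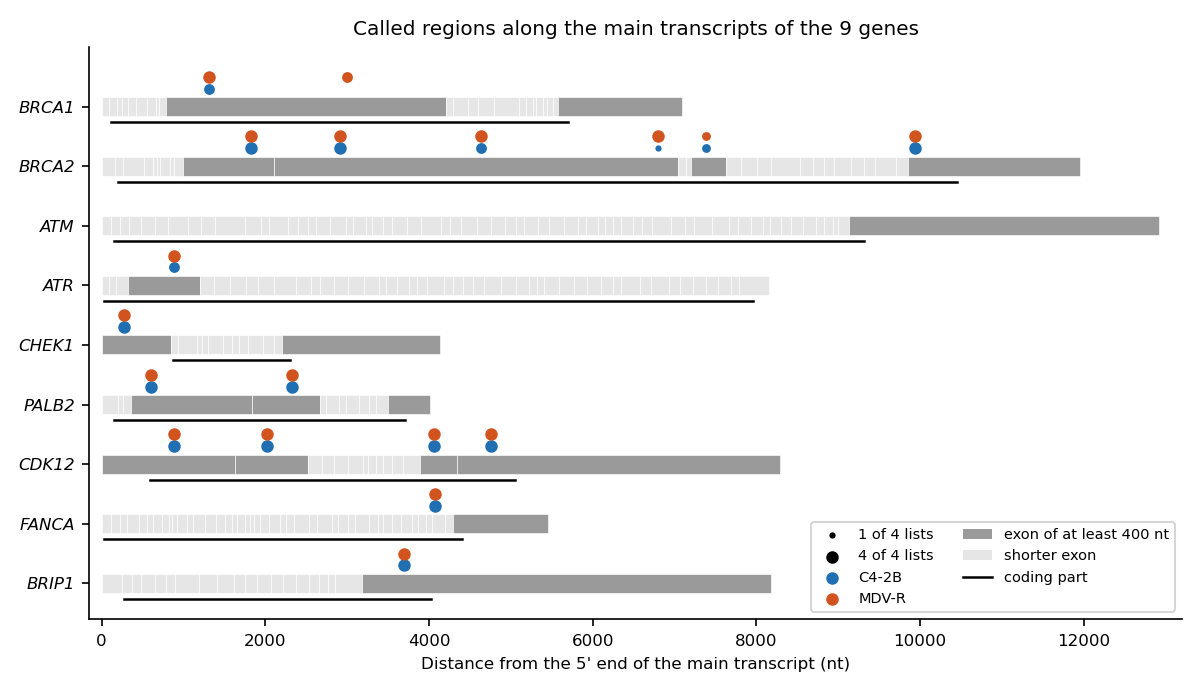
Called regions along the main transcripts of the 9 genes, with the distance from the 5′ end in nt on the x axis, exons of at least 400 nt in dark grey, shorter exons in light grey and the coding part as a line. Circles mark summits and grow with the number of lists of a line (0 to 4) that held a peak; 17 of the 18 lie over dark exons and ATM has none.

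The sequence under the summits was read from the hg38 genome. On the strand of the gene, GGAC occurred within 50 nt of the summit in 9 of the 18 exonic regions (50%, exact 95% interval 26% to 74%, for counting error only), against 46.8% of the 14195 regions of the series in main transcript exons. DRACH (A, G or T, then A or G, then A, then C, then A, C or T), which includes GGAC followed by any of those last bases, occurred in 17 of 18, against 88.2%. The share in the 12 exonic regions called in all 8 lists was 41.7% for GGAC, against 51.7% of 6074. For the 18 regions the share of the series lay inside the interval. No base resolution is given by the peaks, so the matches below show letters under a summit and not methylated sites. The first set below shows the GGAC nearest to the summit in coding exons of BRCA1, BRCA2, PALB2, CDK12 and FANCA, with GGAC in capitals, read along the gene's own strand, in hg38 coordinates. It is shown because the match lies within 50 nt of the summit of the strongest peak. Summits of single libraries spread over 1497 nt in the FANCA region and 357 nt in that of BRCA1. Some of them thus lay farther than 50 nt from the match. The regions shown were called in all 8 lists, except that of BRCA1 exon 10, which was called in 3 MDV-R lists.
BRCA2 exon 10, chr13:32333082-32333107, plus strand, A of GGAC 4 nt from the summit: cctctgaaagtGGACtggaaatacat
BRCA1 exon 10, chr17:43092627-43092652, minus strand, 12 nt: gcaacgaaactGGACtcattactcca
PALB2 exon 4, chr16:23636074-23636099, minus strand, 16 nt: gcagcagaagaGGACatttatttcac
CDK12 exon 13, chr17:39526049-39526074, plus strand, 33 nt: tcccagcagcaGGACtcagagaccat
CDK12 exon 14, chr17:39531029-39531054, plus strand, 26 nt: cagtttccaggGGACcaggacctccg
FANCA exon 41, chr16:89739212-89739237, minus strand, 37 nt: catgttgctgtGGACatgtacttgaa

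The site under BRCA1 region 8 is shown because this region had the widest gap in IP strength between the lines. Capitals again mark GGAC, read on the minus strand.
BRCA1 region 8, chr17:43162907-43162932, minus strand, 12 nt from the summit: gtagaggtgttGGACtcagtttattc
On the strand of the gene, no GGAC was present in the CHEK1 region, in the region of CDK12 exon 2 or in ATR region 3, which all 8 lists called. The other strand was not searched.

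Between the lines, 16 of the 46 called regions (34.8%) were called in more MDV-R lists, beside 49.7% of all called regions of the series, and 9 (19.6%) in more C4-2B lists, beside 18.4%. The other 21 had equal numbers. The MDV-R lists were longer on the whole, with 26877 ± 2846 peaks against 21117 ± 5330 (SD, n = 4 each). One region, BRCA1 region 9, was called in all 4 MDV-R lists and in no C4-2B list, as were 3.68% of all called regions. No member region was called in all 4 C4-2B lists and in no MDV-R list (1.22% of all). With 4 against 4 lists the smallest p of Fisher's exact test is 0.0286, and after Benjamini-Hochberg adjustment over 36076 regions the lowest adjusted p was 0.584, so no region passed. Another 4 regions, BRCA1 regions 1 and 3, BRCA2 region 4 and FANCA region 4, differed by 3 lists between the lines. A difference of at least 3 lists was found in 10.6% of all regions towards MDV-R and in 3.73% towards C4-2B, and in 4 and 1 of the 46. When every list was limited to the size of the smallest, BRCA1 region 9 was no longer called in all 4 MDV-R lists alone. FANCA regions 3 and 5 were then called in all 4 C4-2B lists and in no MDV-R list. Under this setting 2.96% of all regions were called in all 4 C4-2B lists alone and 2.7% in all 4 MDV-R lists alone.

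**Figure D2:**
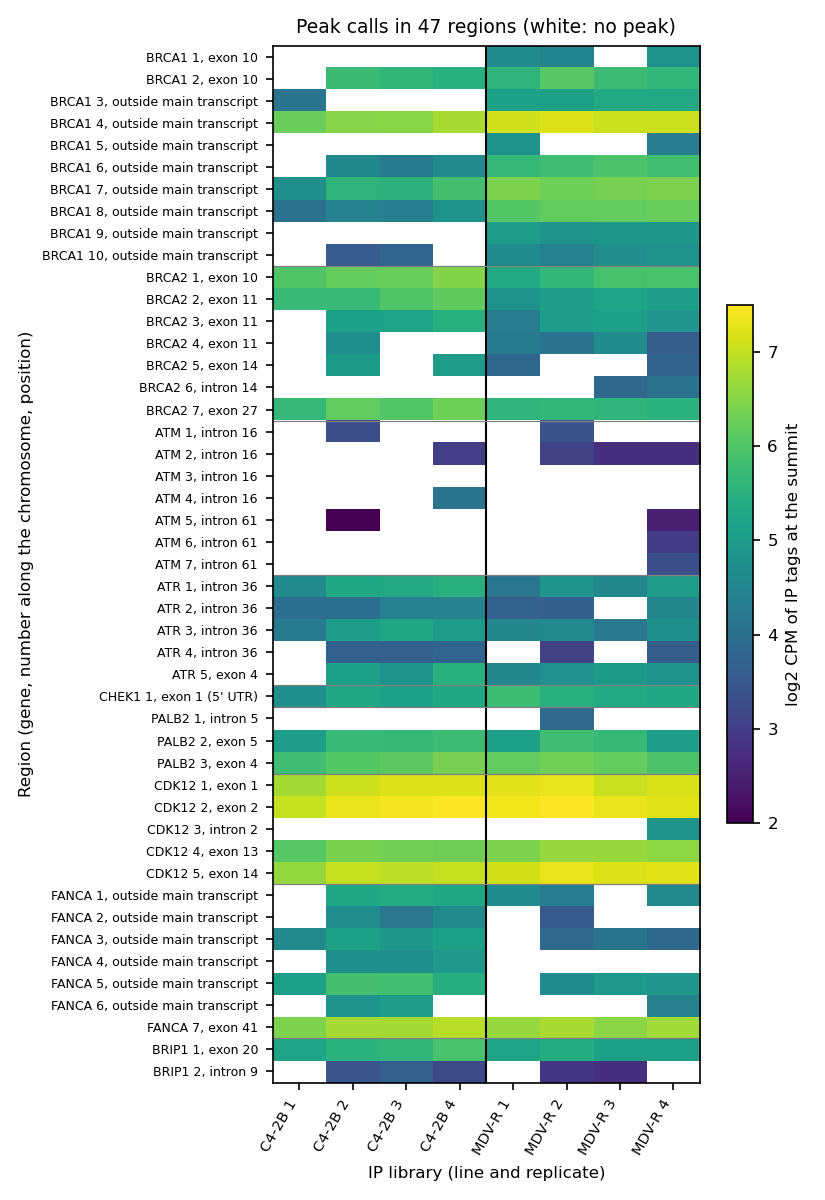
Calls in the 47 regions (rows, numbered along the chromosome within each gene) in the 8 IP libraries (columns, C4-2B left and MDV-R right of the black line), coloured by log2 IP tags at the summit per M IP tags of the library and white where no peak was called. The 4 CDK12 exon regions are filled throughout and among the highest, the ATM rows are nearly empty and BRCA1 region 9 is filled on the MDV-R side alone.

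BRCA1 (chr17:43044295-43170245, minus strand) had 10 regions and 62 peaks, the most of the 9 genes, but 8 of the regions lay outside its main transcript. That transcript has 23 exons and ends 5′ at position 43125364. Only 1 of the 40 annotated BRCA1 transcripts covers the 8 outer summits, each in an intron, whereas NBR2, a long noncoding RNA gene on the other strand, and an unnamed long noncoding RNA gene on the same strand have exons there. IP strength below is the number of IP tags at the summit per M (mega) IP tags of the library, written CPM, and a value exists only where a peak was called. It is taken at the summit of the library's own strongest peak in the region. In a wide region the values of different libraries can therefore come from different places.

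Both regions inside the BRCA1 mRNA lay in exon 10, the long exon that encodes much of the protein's central part. Region 2 (chr17:43093702-43094864) had a peak in 3 lists of C4-2B and 4 of MDV-R. Its CPM values were 53.5, 48.2 and 45.2 in C4-2B replicates 2 to 4 and 47.7, 66.9, 54.5 and 50.2 in MDV-R replicates 1 to 4. The lines overlapped. Region 1 (chr17:43092415-43093270) was called in MDV-R replicates 1, 2 and 4 alone, with 25.5, 22.3 and 27.9 CPM (21 to 25 tags). This is the weaker of the pair in every MDV-R library that had both.

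Upstream of the main transcript, values were higher in MDV-R. Region 4 (chr17:43134821-43137271, over an intron of NBR2) was the strongest. In C4-2B it had 75.4, 90.2, 92.2 and 110.0 CPM, and in MDV-R 136, 148, 134 and 134, with no overlap (91.9 ± 14.2 against 138 ± 6.48, SD, n = 4 each). Region 7 (chr17:43144723-43145264, over an exon of NBR2 and a pseudogene) had 26.5, 47.6, 46.1 and 59.1 in C4-2B. In MDV-R it had 85.5, 77.6, 82.8 and 84.8, all above the C4-2B libraries. The difference between the means was 1.84-fold. By the study's methods only uniquely mapped reads were kept, so reads that match a near-identical copy equally well are not counted there. Region 6 (chr17:43139680-43140257, over an NBR2 exon) had a peak in 3 lists of C4-2B and 4 of MDV-R, at 22.5 ± 2.76 (n = 3) and 56.6 ± 4.61 (n = 4) CPM, also without overlap. Region 3 (chr17:43128213-43128650, over an intron of NBR2) had a single C4-2B call, at 17.4 in replicate 1, against 35.5, 35.1, 40.9 and 40.2 in MDV-R.

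Farthest from the BRCA1 mRNA, both regions over the exons of the unnamed noncoding RNA gene (ENSG00000267002, minus strand) separated the lines. Region 8 (chr17:43162469-43163264) had 16.6, 21.8, 20.4 and 27.8 CPM in C4-2B. In MDV-R it had 66.6, 72.2, 72.1 and 74.7, and the lowest MDV-R library lay well above the highest C4-2B one. The ratio of the means was 3.30, with 21.6 ± 4.66 against 71.4 ± 3.44 (SD, n = 4 each), the widest gap of the 17 regions called in all lists. Region 9 (chr17:43164220-43165077) had 33.3, 28.7, 30.2 and 30.1 CPM in MDV-R (27 to 31 tags) and no call in C4-2B, at a fold enrichment over local background of 8.53, 7.91, 5.11 and 7.86. A missing call gives no level, so no ratio was formed. Region 10, across the upper end of the span near the start of NBR1, and region 5 were called in 6 and 2 lists at 11.9 to 27.9 CPM.

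**Figure D3:**
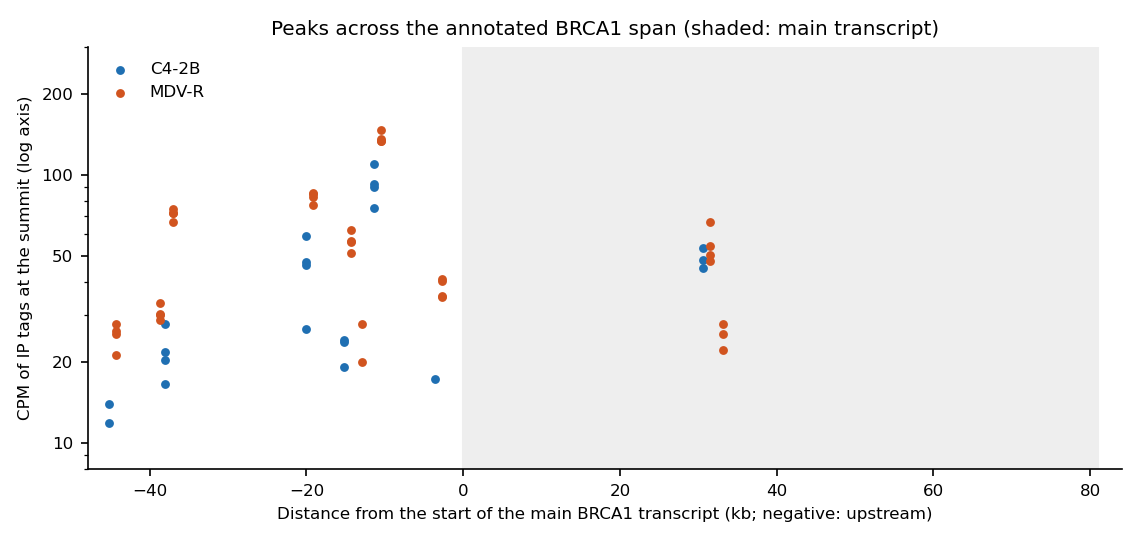
CPM (log axis) of every peak in the 10 BRCA1 regions, by distance in kb from the start of the main BRCA1 transcript, with that transcript shaded and negative distances upstream; the points of C4-2B and MDV-R are moved apart sideways for clarity. In exon 10, near 30 kb, the lines overlap in the region called in both, whereas in the upstream regions called in all 8 lists each MDV-R point lies above every C4-2B point.

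BRCA2 (chr13:32315086-32400268, plus strand, 27 exons) had 7 regions and 44 peaks, of which 6 regions lay in exons of its coding sequence. In contrast to the BRCA1 span, the CPM of its regions was lower in MDV-R. Region 1, in exon 10 (chr13:32332554-32333333), had 64.7, 73.3, 75.0 and 89.2 in C4-2B and 41.1, 49.9, 59.4 and 60.2 in MDV-R. No MDV-R library reached the lowest of C4-2B (75.5 ± 10.2 against 52.7 ± 9.03). Region 2, at the start of exon 11 (chr13:32336226-32337364), had 52.2, 52.5, 64.3 and 71.8 in C4-2B and 27.7, 34.0, 37.0 and 33.5 in MDV-R. These values did not overlap either, with means 1.82-fold apart. Region 7, in the last exon (chr13:32398009-32398849), had 50.6, 72.3, 65.4 and 77.6 in C4-2B against 47.7, 49.9, 47.7 and 45.7 in MDV-R. The gap there was narrow, since C4-2B replicate 1 lay just above MDV-R replicate 2.

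The other BRCA2 regions were called in some lists. Region 3, also in exon 11, had a peak in 3 lists of C4-2B and 4 of MDV-R at 38.7 ± 4.61 (n = 3) and 29.5 ± 6.88 (n = 4) CPM. Region 4 (chr13:32340527-32341168), farther along the same exon, had 1 C4-2B call, at 26.7 in replicate 2, and 18.9, 17, 25.3 and 12.3 in MDV-R. It was thus called in more MDV-R lists although each MDV-R value lay below the C4-2B one. Region 5, in exon 14, had 2 calls in each line at 13.4 to 32.4, and region 6, in intron 14, had 2 MDV-R calls of 15 tags each.

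The local background under the BRCA2 peaks differed in the same direction. It is the expected tag count that the peak caller took for the summit, recovered from its statistics and given here in multiples of the lowest background of the same library, and it approximates the amount of input RNA around a called peak. In region 2 it was 15.6, 13.9, 12.6 and 17 in C4-2B and 2.66, 2.66, 6.98 and 2.37 in MDV-R. Region 1 had 25.4, 17.1, 16.5 and 15.2 against 5.73, 4.43, 6.05 and 3.71. Region 7 had 36.6, 22, 24.8 and 23 against 9.67, 7.08, 13.1 and 3.71. In all 3 exons the MDV-R background lay below that of every C4-2B library, with ratios of the means of 3.72, 4.03 and 3.17 for regions 1, 2 and 7. Fold enrichment is the ratio of both parts after 1 is added to each, which lowers it most where the background is small. Fold enrichment then stood higher in MDV-R, for example at 13.8 ± 4.73 against 7.19 ± 2.35 in region 7. The libraries of the lines did not overlap in region 7, whereas in regions 1 and 2 they did. These values are not centred, and over all tested regions the uncentred fold enrichment was higher in MDV-R by a median of 0.44 on the log2 scale; in region 7 the log2 difference was 0.95 before and 0.55 after centring.

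PALB2 (chr16:23603160-23641321, minus strand, 13 exons) had 3 regions and 19 peaks. Both regions called in all lists lay in its long exons 4 and 5. Region 3, in exon 4 (chr16:23634899-23636463), had 56.4, 66.4, 70.7 and 83.4 CPM in C4-2B and 72.1, 80.7, 73.0 and 62.5 in MDV-R. Region 2, in exon 5 (chr16:23629669-23630514), had 33.2, 52.5, 51.4 and 54.4 against 34.4, 56.3, 51.6 and 33.5. The lines overlapped in both. Region 1, in intron 5, was called once, in MDV-R replicate 2, with 14 tags.

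Of the Fanconi anaemia genes, FANCA (chr16:89726683-89816977, minus strand, 43 exons) had 7 regions and 43 peaks. Region 7 (chr16:89737582-89740850) spans 3269 nt at the 3′ end of the gene. Its summits spread over 1497 nt between libraries, and that of the strongest peak lay in exon 41. Region 7 was called in all lists, at 87.0, 108, 108 and 120.4 CPM in C4-2B and 101, 112, 93.5 and 106 in MDV-R, which overlap. The 3′UTR of ZNF276, on the opposite strand, is annotated at the same summit, so that these tags cannot be assigned to one of the genes. Regions 1 to 6 lay beyond the 3′ end of the main transcript, which reaches position 89737549, over ZNF276, and only 1 of 45 FANCA transcripts extends there. They had 19 calls in C4-2B and 11 in MDV-R, while over all merged regions 43.9% of the calls were in C4-2B lists. Region 4 (chr16:89731862-89732290) was called in C4-2B replicates 2 to 4 alone, at 26.7, 26.8 and 31.3 CPM (25 to 27 tags). In the other 5 the C4-2B mean stood above the MDV-R mean where both lines had calls, for example at 31.3 ± 4.96 (n = 4) against 15.6 ± 1.65 (n = 3) in region 3. The summits of region 3 spread over 712 nt between libraries, those of MDV-R lying apart from those of C4-2B.

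BRIP1 (chr17:61679139-61863559, minus strand, 20 exons) had 2 regions and 13 peaks. Region 1, in the coding part of the last exon (chr17:61683269-61684220), had 37.3, 45.6, 48.2 and 60.2 CPM in C4-2B. In MDV-R it had 36.6, 42.5, 35.1 and 34.6, with 1 MDV-R library above the lowest of C4-2B. Region 2, in intron 9 and over the 3′UTR of another BRIP1 transcript, had a peak in 3 lists of C4-2B and 2 of MDV-R with 7 to 12 tags.

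The kinase genes ATM and ATR stood out for peaks in introns. ATM (chr11:108223044-108369102, plus strand, 63 exons) had 7 regions, of which 4 lay in intron 16 and 3 in intron 61, the latter over C11orf65. None was called in more than 4 lists, its 12 peaks in regions or outside them held 4 to 15 tags, and region 3 (chr11:108265387-108265691) overlapped no peak of any list. At this depth no ATM exon carried a call, which sets no level for its mRNA. ATR (chr3:142449007-142578733, minus strand, 47 exons) had 5 regions and 39 peaks, with regions 1 to 4 in intron 36. Region 1 (chr3:142475287-142476372) had 24.9, 39.6, 39.7 and 44 CPM in C4-2B and 17.8, 28.7, 23.4 and 32.3 in MDV-R. Region 3 (chr3:142478301-142479244) had 19.1, 33.7, 37.5 and 32.4 against 23.3, 24.4, 18.5 and 26.8. The lines overlapped in both, through C4-2B replicate 1 alone. In region 1 the summits spread over 616 nt, with those of C4-2B replicate 1 and MDV-R replicate 3 apart from the others. The exonic ATR region 5, in the long exon 4, had a peak in 3 lists of C4-2B and 4 of MDV-R at 35.9 ± 8.71 (n = 3) and 27.7 ± 3.61 (n = 4).

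CHEK1 (chr11:125625163-125676255, plus strand, 13 exons) had 1 region and 8 peaks, all at the 5′ end (chr11:125625014-125625704). Its summit lay at nt 278 of the main mRNA, in the 5′UTR, which 1 of 16 CHEK1 transcripts covers at that place, and an antisense long noncoding RNA gene overlaps the region. The region begins before the annotated start of CHEK1. The protein-coding gene STT3A, on the same strand, also overlaps the region, though not at the summit. CPM values were 26.5, 39.6, 34.3 and 39.4 in C4-2B and 55.5, 43.6, 40.9 and 39 in MDV-R. The lines overlapped through MDV-R replicate 4, which lay between the C4-2B libraries.

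CDK12 (chr17:39461486-39567559, plus strand, 14 exons) carried the strongest peaks of the group, with a median of 130 tags over its 34 peaks. Its exons 1, 2, 13 and 14 each held a region called in all lists, and a region in intron 2 was called once. Region 2, in exon 2 (chr17:39470644-39471729), had 130.1, 159, 168 and 181 CPM in C4-2B and 168, 183, 159 and 151 in MDV-R. Region 1, in exon 1 (chr17:39461307-39462890), had 108, 136, 148 and 147 against 152, 157, 130.5 and 143. Lines overlapped in these early exons. The regions at the 3′ end of the coding sequence did not overlap. Region 4, in exon 13 (chr17:39525615-39526309), had 67.1, 84.2, 81.5 and 78.7 in C4-2B and 86.6, 99.9, 100.3 and 94.8 in MDV-R. Region 5, in exon 14 (chr17:39530355-39531625), had 99.5, 129, 124 and 129 against 142, 159, 149 and 153. Both differences between the means were small, at 1.22-fold and 1.25-fold.

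The 17 regions called in all 8 lists could be tested, and the fit was made over all 9173 such regions of the series with limma on the log2 scale, after each library was centred on its median. For IP tags, 5 of the 17 regions were higher in MDV-R (29.4%; 27% of all tested) and 6 lower (35.3%; 26.9% of all), with a median log2 difference of -0.0023 beside 0.0022 over all. The members' shares were thus near those of the series. Higher were BRCA1 region 8 by 1.69 (SE 0.12, adjusted p = 7.0e-13), BRCA1 region 7 by 0.88 (adjusted p = 5.2e-08), BRCA1 region 4 by 0.54 (adjusted p = 9.7e-08) and CDK12 regions 5 and 4 by 0.27 and 0.24 (adjusted p = 0.00058 and 0.0094). BRCA1 regions 4, 7 and 8 lie outside its main transcript and over other genes, and no region of the BRCA1 mRNA could be tested. Among the lower ones, BRCA2 regions 2, 1 and 7 fell by 0.92, 0.59 and 0.52 on the log2 scale (adjusted p = 9.9e-08, 1.2e-05 and 3.3e-05). ATR regions 1 and 3 fell by 0.60 and 0.43 (adjusted p = 0.0026 and 0.034) and BRIP1 region 1 by 0.40 (adjusted p = 0.0053). The CHEK1 region had a log2 difference of 0.30 (adjusted p = 0.057), and those of PALB2, FANCA and CDK12 regions 1 and 2 lay between -0.19 and 0.06 and did not pass. Without centring, CDK12 region 4, BRIP1 region 1 and ATR region 3 did not pass (adjusted p = 0.092, 0.12 and 0.16).

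**Figure D4:**
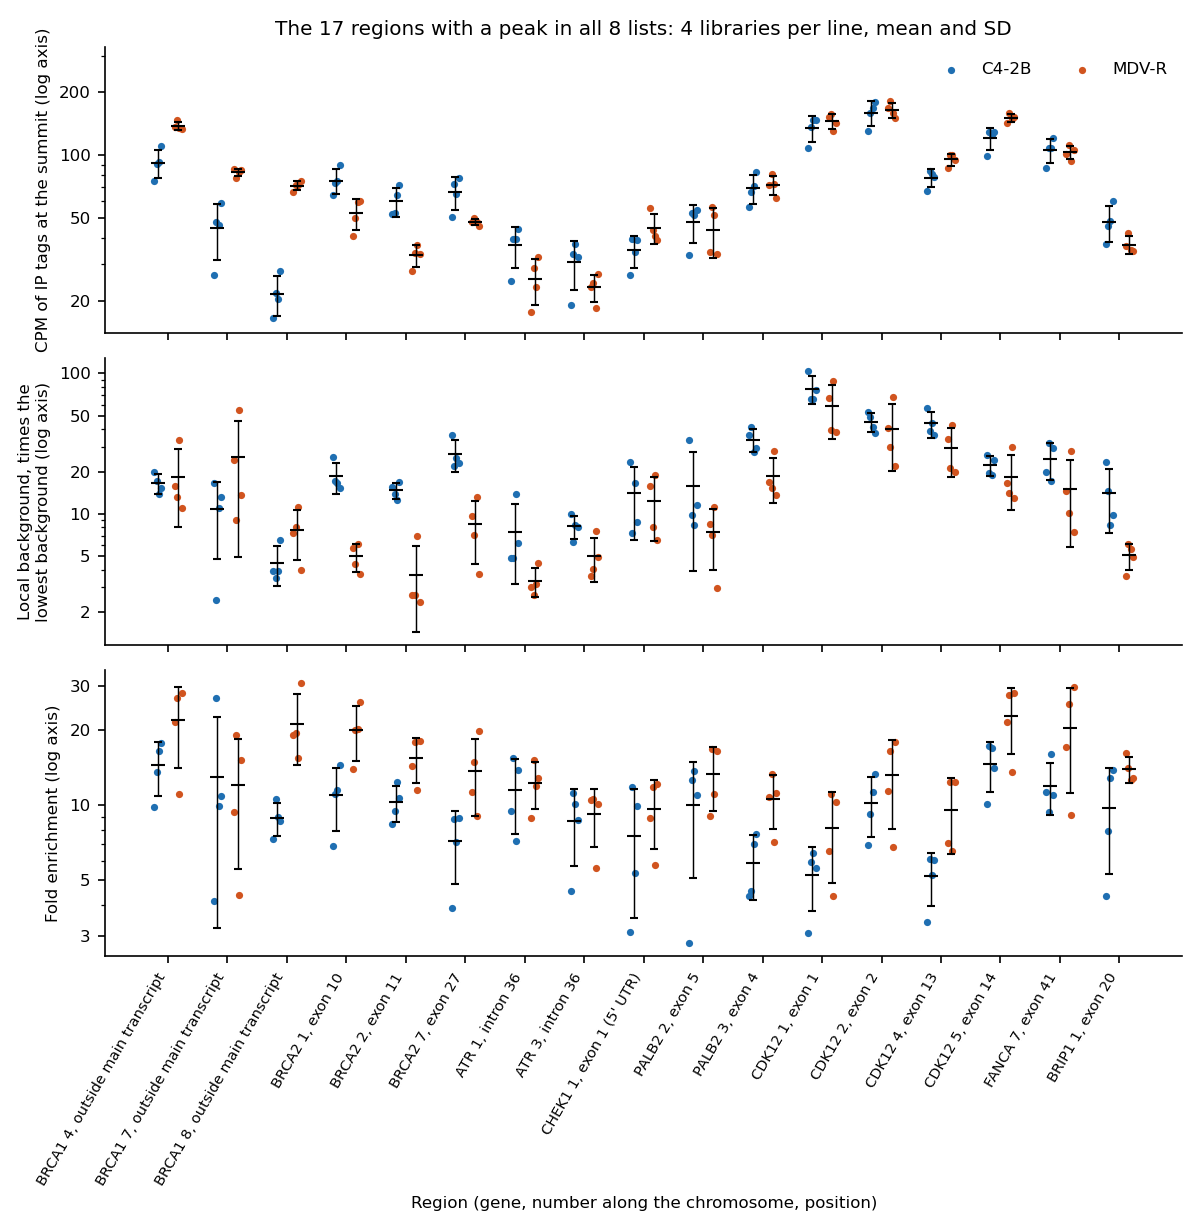
CPM (top), local background in multiples of the library's lowest (middle) and fold enrichment (bottom), all on log axes, of the 17 regions called in all 8 lists, with a point per library and the mean and SD of 4 libraries per line. In the top panel the 3 BRCA1 regions are higher and the 3 BRCA2 regions lower in MDV-R without overlap, and in the bottom panel most regions overlap.

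For the local background, 2 of the 17 regions were higher in MDV-R (6.75% of all tested) and 3 lower (9.29% of all). BRCA2 regions 2, 1 and 7 fell by 1.65, 1.39 and 1.27 on the log2 scale (SE 0.30, 0.30 and 0.27; adjusted p = 0.0023, 0.0062 and 0.0064). BRCA1 regions 7 and 8 were higher by 1.70 and 1.23 (adjusted p = 0.032 and 0.028), but neither passed without centring (adjusted p = 0.13 and 0.31), which shifts the median difference of all regions to -0.48. In all 5 regions whose background changed, IP tags changed in the same direction, and over the series this held in 1262 of 1471 such regions (85.8%), with 8 in opposite directions.

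**Figure D5:**
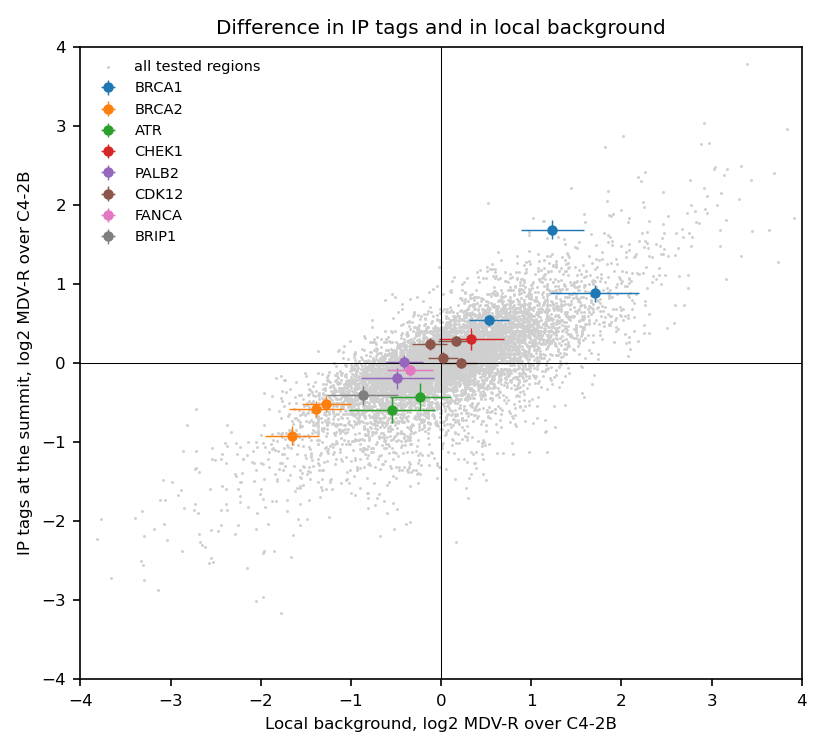
Difference in IP tags at the summit (y axis) against the difference in local background (x axis), both as log2 of MDV-R over C4-2B, for the 17 member regions (coloured by gene, bars are standard errors of the limma fit) and all 9173 tested regions (grey). The BRCA2 regions lie at the lower left and the BRCA1 regions at the upper right, along the diagonal of the grey points.

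Fold enrichment, the measure of IP over background, passed the test in none of the 17 regions (0.894% of all tested were higher and 1.8% lower). At an unadjusted p under 0.05 there were 2, beside 18.2% of all regions. They were BRCA1 region 8, with a log2 difference of 0.82 (SE 0.23, adjusted p = 0.065), and BRCA2 region 7, with 0.55 (SE 0.24, adjusted p = 0.24). Without centring, BRCA1 region 8 passed, at 1.22 (adjusted p = 0.035; 3.01% of all regions were then higher and 0.218% lower). Of the 17 differences 13 were above 0, with a median of 0.19 beside 0.03 over all regions. The median standard error was 0.25 on the log2 scale. On simulated data, limma recovered 37.5% of the regions changed by 1 on the log2 scale in fold enrichment. With 4 libraries per line, differences of that size could thus be missed as well as small ones, and the lack of a pass does not show equal enrichment. Differences in the level of the transcript and in the share of it that was pulled down are both contained in IP tags, and only fold enrichment sets one against the other.

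Per gene, the number of bases covered by peaks gives a value in every library, including 0. BRCA1 had 2561, 3567, 3540 and 3309 bases in C4-2B and 7136, 6932, 4974 and 7339 in MDV-R, so that every MDV-R list covered more. These bases were counted over the annotated span, where most BRCA1 regions lie outside its main transcript and over other genes. They are therefore not those of the BRCA1 mRNA alone. The exact two-sided permutation test over 70 arrangements gave p = 0.0286, the smallest it allows, which adjusted over 11745 protein-coding genes was 0.155. BRCA2 had 1461, 3489, 3163 and 3433 bases against 3876, 3803, 3758 and 4426 (exact permutation p = 0.0286), and CDK12 3155, 3741, 3694 and 3802 against 4199, 4277, 4161 and 4690 (exact permutation p = 0.0286). All 3 were covered further in MDV-R, as were 15.6% of all genes at this unadjusted level, whereas 2.78% were covered less and none passed after adjustment. BRCA2 thus had more bases called in MDV-R while the IP tags of its strongest regions were lower there. FANCA had 6069 ± 1462 bases in C4-2B and 4261 ± 670.0 in MDV-R (exact permutation p = 0.0857). ATM, ATR, CHEK1, PALB2 and BRIP1 had exact permutation p of 0.457 to 0.629. As a share of all bases called in a list, CDK12 reversed its direction, and the BRCA2 values of the lines overlapped. The BRCA2 difference thus did not reach an exact permutation p of 0.0286 as a share. In exons of the gene alone the BRCA1 and CDK12 differences had an exact permutation p of 0.0571, with BRCA2 at 0.0286.

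The other genes of the pathway, 46 in a list of recombination, Fanconi anaemia and checkpoint genes, served as context. A region was present in 39 of them and in an exon of the main transcript in 32, while 7 had none. Of their 139 regions, 44 were called in all 8 lists, a larger share than the 25.9% of all called regions of the series. Of these 44, 11 had higher and 20 lower IP tags in MDV-R (27% and 26.9% of all tested), with a median log2 difference of -0.13. Local background was higher in 2 and lower in 12 (6.75% and 9.29% of all tested), with a median of -0.37. For both measures the share of the 44 that was lower exceeded that of the series, and this difference in shares was not tested. Fold enrichment passed in none (0.894% higher and 1.8% lower of all tested), with a median of -0.03. In MDV-R alone, all 4 lists called a region in the 3′UTR of RAD52, a strand-annealing protein (24.6 ± 3.16 CPM, n = 4), and one in the 3′UTR of RAD9A, a subunit of the checkpoint clamp (55.9 ± 9.72), where another gene is annotated too. In C4-2B alone all 4 lists called a region in an intron of RMI1, a partner of the BLM helicase (15.2 ± 4.27). Over the series, 3.68% of called regions had a call in all 4 MDV-R lists alone and 1.22% in all 4 C4-2B lists alone.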

How the data were processed

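RNA of 16 samples, 4 IP and 4 input libraries of each line, was sequenced, and 8 peak lists and 1 merged list were used. Per the labels and methods, the authors aligned reads with STAR 2.7.0 to GRCh38 (hg38). They took out duplicates and reads without a unique place by means of SAMtools 1.10. MACS2 3.0.0a6 was run on every IP library with its input, without pooling replicates. Per peak, the deposited values are a fold enrichment, a −log10 p-value, a −log10 q-value and a score derived from it. The fold enrichment is the IP signal plus 1, divided by the local background plus 1. How the merged list was made is not given in the sources used here.

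IP tags and local background at each summit were recovered from the deposited fold enrichment and −log10 p-value, given an extension of 100 nt and the stated genome size, and on simulated peaks the tags came back in 100% where input was the deeper library and in 99.98% where IP was. Depth is thus a reconstruction. Regions were counted as called at an overlap of at least 1 bp and annotated with GENCODE 44 (the authors used an earlier release). Comparisons used limma 3.58.1 in R 4.3.3 with Benjamini-Hochberg adjustment at 0.05, Fisher's exact test and exact permutation tests (SciPy 1.17.1), and bedtools 2.31.1 for overlaps. On simulated data, limma recovered 96% of 200 regions changed by 1 on the log2 scale in IP tags, 37.5% in fold enrichment and 3% in local background. All 9 genes and all of their regions were named, with values per library for regions called in all 8 lists or differing by 3 or more lists. Pathway genes were named where a region was called by all 4 lists in one line without any call in the other. The members, lists and rules were chosen with earlier results of these data known. As alternatives, a minimum −log10 q of 5, lists of equal size, 50% overlap, an own union of peaks, no centring, quantile normalization, other regions tested, no trend, exons alone, shares of bases, replicate number as a block, and leaving out each library were tried. Some items are not reported here.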

Additional observations from a re-analysis of the deposited data

Results flagged for a closer look

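In 13 of 153 groups of 4 libraries (8.5%), 1 library stood apart from the other 3 by more than Dixon's 95% value, which chance gives in about 1 of 20 groups. MDV-R replicate 3, the MDV-R library with the fewest input tags, had a higher local background, in multiples of the library's lowest, in BRCA1 region 2 (31.6 against 12.4 to 15.5 in the others), in BRCA1 region 9 (15.4 against 8.09 to 8.77) and in BRCA2 region 2 (6.98 against 2.37 to 2.66). Its fold enrichment in ATR region 3 was 5.6 against 10.1 to 10.6. C4-2B replicate 1, the library with the fewest peaks, had 33.2 CPM (IP tags at the summit per M tags) in PALB2 region 2 against 51.4 to 54.4, with a local background of 33.3 against 8.26 to 11.6, and 99.5 CPM in CDK12 region 5 against 124 to 129. It also covered fewer bases in BRCA2 (1461 against 3163 to 3489), PALB2 (1498 against 2142 to 2164), CDK12 (3155 against 3694 to 3802) and BRIP1 (591 against 1334 to 1478). C4-2B replicate 4 had a local background of 6.57 in BRCA1 region 8 against 3.48 to 3.92, and C4-2B replicate 3 one of 13.8 in ATR region 1 against 4.88 to 6.25.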

How the results depend on the processing

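The number of member regions called in all lists of a single line was 1. It was 2 with lists of equal size and 1 to 3 when a library was left out, with 3 without C4-2B replicate 1 (FANCA region 4 and BRCA1 regions 3 and 9) and 2 without C4-2B replicate 2 or MDV-R replicate 3. Calls were not recounted under the replicate block, so that it says nothing about this count. No region could pass the exact permutation test within replicate number, whose smallest p of 0.125 cannot reach 0.05. Without the block, no region passed Fisher's exact test after adjustment. Fold enrichment passed in 0 regions and in 1 without centring. Local background passed in 5, and in 3 to 6 with a library left out, the 3 without MDV-R replicate 1 or 3, where BRCA1 regions 7 and 8 were lost. IP tags passed in 11, and in 10 to 13 with a library left out. In IP tags, ATR region 3 did not pass without C4-2B replicate 2 or 3 or MDV-R replicate 3 (adjusted p = 0.091, 0.098 and 0.12 in limma) or with regions called in at least 3 lists of each line (0.076), nor did CDK12 region 4 without C4-2B replicate 4 (0.099). The CHEK1 region passed without C4-2B replicate 2 or MDV-R replicate 4 (adjusted p = 0.046 and 0.041) and PALB2 region 2 without MDV-R replicate 2 (0.034). The higher background of BRCA1 region 7 was lost in limma without MDV-R replicate 1, 3 or 4 (adjusted p = 0.082, 0.098 and 0.061) and without a trend (0.072), and that of BRCA1 region 8 without C4-2B replicate 1 or 2 or MDV-R replicate 1, 2 or 3 (0.055 to 0.092), while the lower background of the 3 BRCA2 regions was kept with every library left out. The background of BRCA1 region 8 had adjusted p = 0.053 under the block, which changed no other call on single regions. Genes with p under 0.05 for bases called numbered 3, against 1 in exons alone, 0 under the block (where the smallest p is again 0.125) and 2 to 3 with a library left out. BRCA1 had an exact permutation p of 0.0571 without any 1 C4-2B library, BRCA2 of 0.0857 without any 1 MDV-R library, and FANCA of 0.0286 without C4-2B replicate 1. CDK12 reversed as a share of bases, at -28.9 bases per M bases called, and the BRCA2 shares of the lines overlapped. Under equal lists and under shares, ATR and FANCA reached an exact permutation p of 0.0286 with fewer bases in MDV-R. GGAC within 25 nt was found in 22.2% of the 18 regions, and DRACH within 50 nt in 94.4%. Replicate numbers did not pair the libraries: correlations of deviations between equal numbers lay between -0.075 and 0.040. The depth of 0.864 to 1.21 M IP tags limits weak regions such as those of ATM, and local background is known at called peaks alone.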
